A study of Mus musculus with 8 samples.

Results

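Interferon-stimulated genes are the antiviral genes that cells switch on when an interferon binds its receptor. A list of 44 such mouse genes was followed across the c-kit-high and c-kit-negative cells of leukaemic spleens. The members were taken by gene symbol, each represented by the probe set with the highest mean log2 value over the 8 arrays. Of the 44, 41 were measured by a probe set that carries 1 gene symbol, among 18193 named genes on the array. The other 3, Isg15, Ifi205 and Ifi44, had no such probe set and are not analysed here.

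Type I interferons act through the receptor chains Ifnar1 and Ifnar2, the kinases Jak1 and Tyk2, and a complex with Stat2 and Irf9 that binds the interferon-stimulated response element. Interferon gamma acts through its own receptor and a different element. The induced proteins sense foreign nucleic acids, degrade or trap viral RNA, block viral entry and attack the vacuoles of intracellular microbes. In the blood system, interferon is known both as an antiviral signal in monocytes and macrophages and as a signal that acts on stem cells.

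The comparison was of CD117pos splenocytes, sorted for high c-kit, with CD117neg splenocytes of the same 4 mice, sorted for little or no c-kit. All 8 arrays came from mice with acute myeloid leukaemia driven by the MLL-AF10 fusion gene. The disease was started by transplanting c-kit-positive bone marrow stem and progenitor cells, immortalised by retroviral transduction, into syngeneic recipients (strain written CD57BL/6 in the labels) after sub-lethal irradiation, so the spleens may also hold cells of the host. No sex, age or separate transduction is given for the mice, which are called _948, _951, _952 and _953 after the ends of the array titles.

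The values are probe set intensities on a linear scale. Differences are CD117pos minus CD117neg of log2(intensity + 16), given ± SE, from 1 limma fit over all named genes with the mouse as a block. A gene passed at a Benjamini-Hochberg adjusted p under 0.05. The sort marker Kit averaged 751 ± 127 in the CD117pos arrays and 28.6 ± 9.73 in the CD117neg arrays (SD, n = 4 each). Array medians were 27.5 to 31.1 in CD117pos and 31.1 to 32.8 in CD117neg. The CD117pos array of mouse _951 stood apart, with correlations of 0.928 to 0.930 with the other CD117pos arrays, which reached 0.985 to 0.987 among themselves. Results that rest on that array are given with and without it. Among all genes the rises and falls in CD117pos numbered 1521 and 2518 as deposited, 2437 and 1943 with quantile-normalised arrays, and 1958 and 2084 with arrays centred on their medians.

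As examples of sequence, the windows upstream of 6 members are printed, 4 that fell in CD117pos cells and 2 that rose. They were picked by hand. RefSeq start sites (GRCm38.p6) gave a window of 300 bases for 32 of the 44 listed genes, 250 before and 50 after the start. The core of the interferon-stimulated response element was searched as GAAANNGAAA on both strands, and matches could overlap each other. It occurred in at least 1 window of 17 of the 32 members (53.1%), against 1079 of 27025 genes in the table (3.99%). Among measured members with a window, a match was found in 9 of 17 that were lower in CD117pos, 1 of 2 that were higher and 5 of 10 that did not pass. The 4 printed that fell all hold a match and so do not stand for these shares. Oasl2, Parp12 and Ifitm1, which also fell, had none in their windows. The core of the gamma-activated site, searched as TTCNNNGAA, occurred in 10 of the 32 members (31.2%) and in 2582 of the 27025 genes (9.55%). A match describes these letters and does not show that a factor was bound.

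The 250 bases before the start site are shown 5′ to 3′ on the strand of the gene, in lower case, with matches to the response element core in capitals. Rsad2, Ifit1, Ifit3 and Oas3 fell in CD117pos cells, and Gbp3 and Ifit2 rose. Rsad2 lies at chr12:26456453-26456702 on the minus strand, Ifit1 at chr19:34640639-34640888 on the plus strand, Ifit3 at chr19:34583279-34583528 on the plus strand and Oas3 at chr5:120777660-120777909 on the minus strand. Gbp3 lies at chr3:142559794-142560043 and Ifit2 at chr19:34550444-34550693, both on the plus strand.
Rsad2: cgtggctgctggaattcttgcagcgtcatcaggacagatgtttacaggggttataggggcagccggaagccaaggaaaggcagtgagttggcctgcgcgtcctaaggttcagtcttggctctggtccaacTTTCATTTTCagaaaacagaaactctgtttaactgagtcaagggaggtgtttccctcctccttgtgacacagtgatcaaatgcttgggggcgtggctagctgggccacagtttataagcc
Ifit1: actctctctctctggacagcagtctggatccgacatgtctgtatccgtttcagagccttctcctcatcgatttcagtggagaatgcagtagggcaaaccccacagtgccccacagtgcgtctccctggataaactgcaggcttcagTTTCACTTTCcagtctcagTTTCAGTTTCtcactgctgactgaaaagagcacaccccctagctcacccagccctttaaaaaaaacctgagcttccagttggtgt
Ifit3: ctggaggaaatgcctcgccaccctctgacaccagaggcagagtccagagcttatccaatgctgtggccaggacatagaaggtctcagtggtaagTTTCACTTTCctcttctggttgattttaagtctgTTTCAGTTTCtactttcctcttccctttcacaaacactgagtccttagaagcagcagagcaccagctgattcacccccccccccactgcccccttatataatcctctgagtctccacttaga
Oas3: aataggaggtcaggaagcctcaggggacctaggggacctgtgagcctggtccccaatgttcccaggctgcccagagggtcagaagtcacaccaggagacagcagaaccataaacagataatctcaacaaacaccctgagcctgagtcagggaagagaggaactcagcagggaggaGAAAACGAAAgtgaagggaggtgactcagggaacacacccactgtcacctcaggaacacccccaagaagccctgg
Gbp3: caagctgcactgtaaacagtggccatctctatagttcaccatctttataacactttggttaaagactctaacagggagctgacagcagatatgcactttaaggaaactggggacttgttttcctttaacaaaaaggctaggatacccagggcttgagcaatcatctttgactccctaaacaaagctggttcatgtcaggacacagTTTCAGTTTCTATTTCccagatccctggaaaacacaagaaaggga
Ifit2: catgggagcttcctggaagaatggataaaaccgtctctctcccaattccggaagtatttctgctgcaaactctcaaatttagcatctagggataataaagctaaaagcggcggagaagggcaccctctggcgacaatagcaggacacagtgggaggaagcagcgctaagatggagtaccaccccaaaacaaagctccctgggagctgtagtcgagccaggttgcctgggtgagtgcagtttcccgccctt
The Rsad2 match began 120 bases before the start site, those of Ifit1 104 and 85 bases before it, those of Ifit3 156 and 122 bases before it, and that of Oas3 75 bases before it. Gbp3, one of the 2 members that rose, held 2 overlapping matches, which began 45 and 39 bases before its start site, and its other window held none. The Ifit2 window shown held no match, nor did its other window.

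Most of the measured interferon-stimulated genes were lower in CD117pos cells. Of 41 members, 28 fell, 2 rose and 11 did not pass. Among the 18193 genes 13.8% fell and 8.36% rose, 22.2% in all. A fall of at least 2-fold on the log2(intensity + 16) scale was found in 20 members, against 7.32% of all genes. The median difference of the members was -0.90, against -0.01 for all genes. In 24 members all 4 CD117pos arrays lay below all 4 CD117neg arrays, which held for 17.2% of all genes. In 2 members, Gbp3 and Iigp1, all CD117pos arrays lay above, as in 10.4% of all genes, and the arrays of the other 15 members overlapped. In bulk samples such as these, fewer cells of a type and less RNA per cell cannot be told apart. Monocyte and neutrophil markers were also lower in CD117pos, 6 of 11 and 7 of 8, and their part in the members' falls was not tested.

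**Figure D1:**
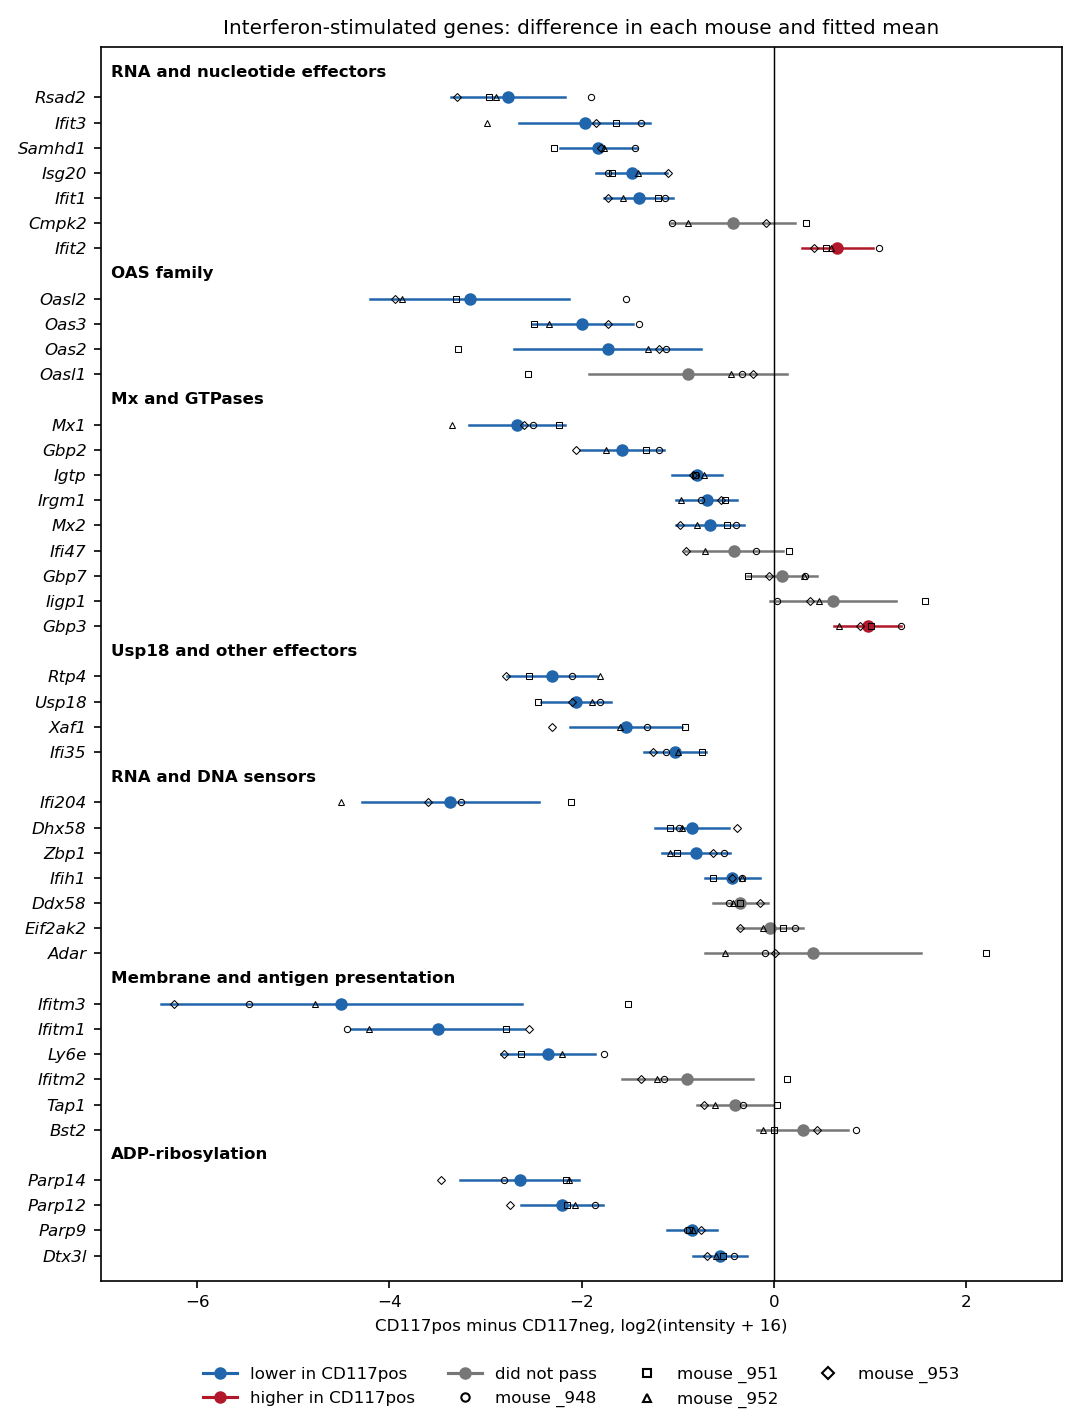
Difference between CD117pos and CD117neg cells for 41 interferon-stimulated genes, grouped by role (x axis, log2 of intensity + 16; filled points are the fitted means, bars their 95% confidence intervals, open symbols the 4 mice). Blue marks the 28 genes that fell, red the 2 that rose and grey the 11 that did not pass; Ifitm3 has the lowest fitted mean and the widest spread over mice.

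Among members that bind or degrade RNA or nucleotides, 5 of 7 fell, 1 rose and 1 did not pass. Over all genes 13.8% fell and 8.36% rose. Values run in the order of mice _948, _951, _952 and _953. Rsad2, encoding viperin, an enzyme that makes a chain-terminating nucleotide, measured 123, 139, 169 and 149 in the CD117pos arrays, against 505, 1187, 1357 and 1605 in the CD117neg arrays. Its fractions did not overlap, and the CD117neg array of mouse _948 was the lowest of its fraction. The log2 difference was -2.76 ± 0.24 (limma, adjusted p = 0.00199), a 6.79-fold lower signal on that scale. Ifit3, a member of the tetratricopeptide family that binds viral RNA, measured 9.18, 6.23, 11.9 and 12.3 in CD117pos, against 49.6, 53.3, 204 and 86.5 in CD117neg. It was dim in every CD117pos array, and the CD117neg array of mouse _952 was well above the other 3. Its difference was -1.96 ± 0.28 (adjusted p = 0.00688), or -2.98 and -1.04 with pseudocounts of 1 and 64.

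Samhd1, which breaks down deoxynucleotides, measured 1568, 879, 1327 and 1335 in CD117pos cells and 4291, 4362, 4543 and 4696 in CD117neg cells, a difference of -1.83 ± 0.16 (adjusted p = 0.00217). The CD117neg arrays differed little from each other, and mouse _951 had the lowest CD117pos value. Isg20, an RNA exonuclease, and Ifit1, which binds RNA with an incomplete cap, also fell, with differences of -1.48 and -1.41. The arrays of Ifit1 overlapped, since its CD117neg value in mouse _948 was 34.8, while mouse _951 had 39.3 in CD117pos.

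Ifit2 went the other way from its family neighbours Ifit1 and Ifit3. Its intensity was 381, 348, 605 and 376 in CD117pos cells, against 170.2, 234, 396 and 277 in CD117neg cells. It was higher in CD117pos in all 4 mice, although the fractions overlapped because mouse _952 was high in both. The difference was 0.66 ± 0.15 (adjusted p = 0.0286). Ifit2 did not pass when mouse _948 (adjusted p = 0.100), _952 (0.102) or _953 (0.0742) was left out. Nor did it pass unblocked (0.111), unblocked and minus the CD117pos array of mouse _951 (0.0754), or at a pseudocount of 1 (0.0633). Cmpk2, a mitochondrial nucleotide kinase encoded beside Rsad2, differed by -0.42 ± 0.26 with an interval of -1.07 to 0.22 (adjusted p = 0.322). Mice _948 and _952 had lower Cmpk2 in CD117pos, with differences of -1.06 and -0.89, and mouse _951 had a difference of 0.33.

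**Figure D2:**
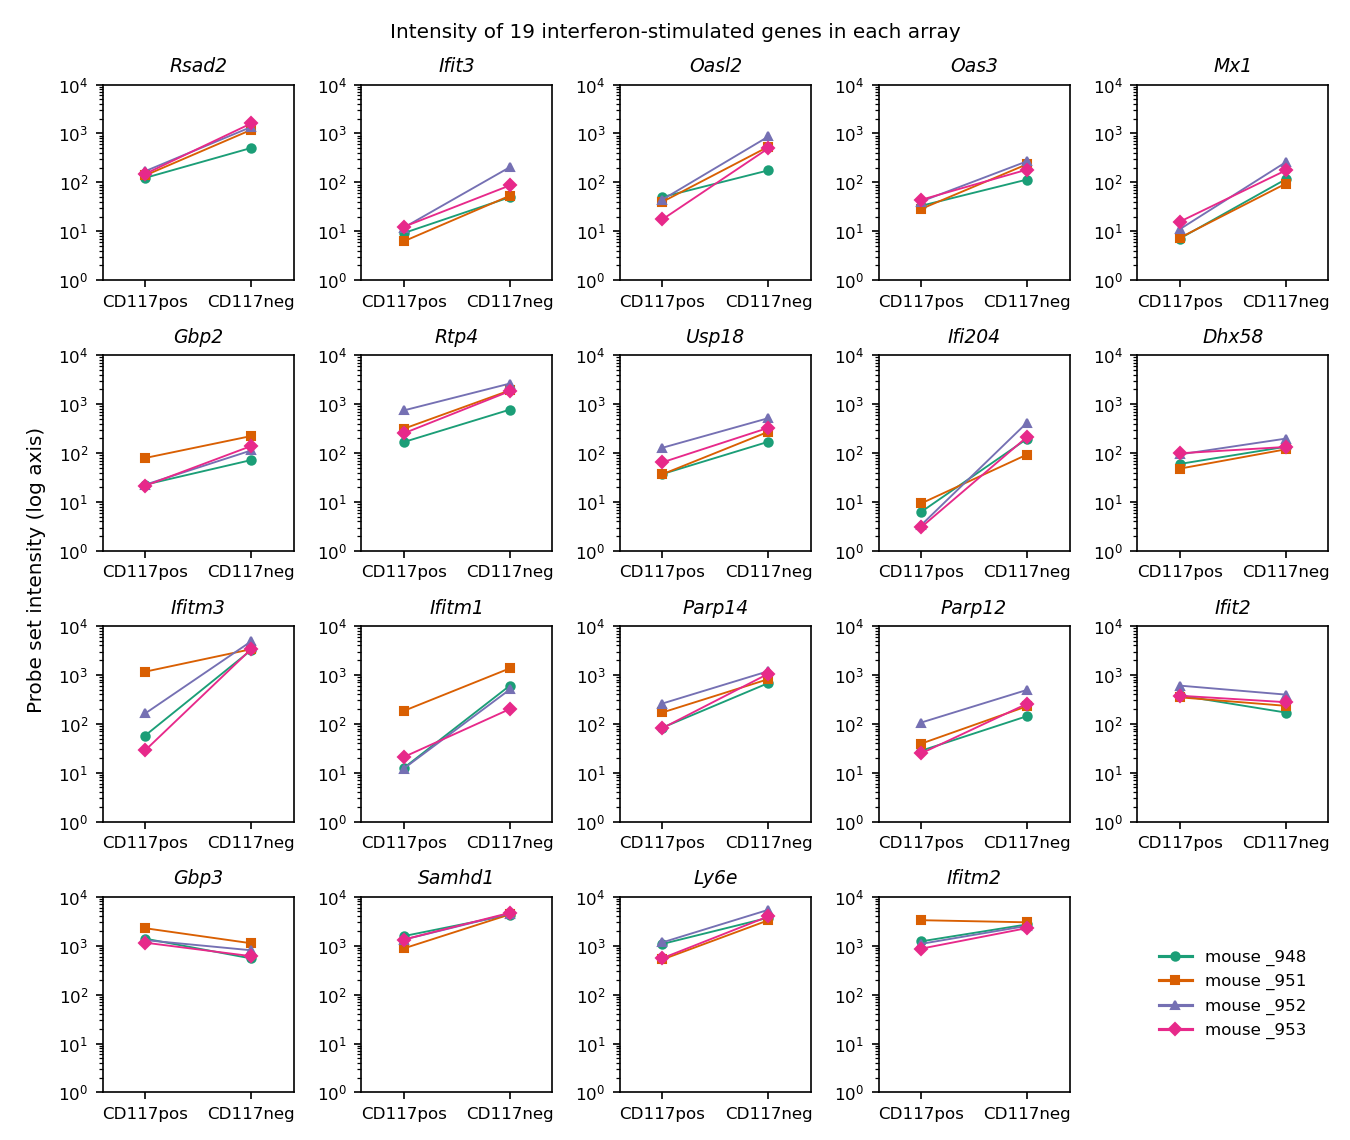
Intensity of 19 interferon-stimulated genes in the CD117pos (left) and CD117neg (right) array of each mouse, on log axes; each line joins the arrays of 1 mouse. Most lines climb to the CD117neg side, those of Ifit2 and Gbp3 descend, and mouse _951 holds the highest CD117pos value of Ifitm1, Ifitm2, Ifitm3, Gbp2 and Gbp3.

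Active oligoadenylate synthetases make the second messenger that activates an antiviral ribonuclease. Of the 4 measured members of the family 3 fell, against 13.8% of all genes. Oasl2 measured 50.1, 39.9, 44.4 and 17.5 in CD117pos cells, against 176, 537, 866 and 499 in CD117neg cells, a difference of -3.16 ± 0.42 (adjusted p = 0.00591). The fall was smallest in mouse _948, at -1.54, and lay between -3.94 and -3.31 in the other mice. Oas3 measured 33.1, 28.5, 40.5 and 43.8 in CD117pos, against 114, 235, 269.8 and 182 in CD117neg, and differed by -1.99 ± 0.21 (adjusted p = 0.00331). Both genes separated the fractions in every array. Oas2 differed by -1.73 ± 0.39 (adjusted p = 0.0292), with -3.29 in mouse _951 and -1.31 to -1.12 in the other mice. The Oas2 call ended without mouse _948 (adjusted p = 0.0783), _952 (0.0870) or _953 (0.0873) and with a pseudocount of 1 (0.0590). It held without mouse _951, with a difference of -1.21 (adjusted p = 0.00193). Oasl1, which in mice restrains the translation of Irf7, did not pass (difference -0.89 ± 0.42, adjusted p = 0.198). In mouse _951 Oasl1 differed by -2.56, against -0.45 to -0.22 elsewhere, and the difference without that mouse was -0.33.

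Among Mx proteins and interferon-induced GTPases, 5 of 9 fell, 1 rose and 3 did not pass, against 13.8% falls and 8.36% rises over all genes. Mx1, a dynamin-like GTPase that blocks influenza virus in mice with an intact gene and is defective in many inbred strains, measured 7.05, 7.31, 10.9 and 15.6 in CD117pos cells, against 115, 93.8, 258 and 175 in CD117neg cells. All CD117pos values were below the array medians, and the difference was -2.67 ± 0.20 (adjusted p = 0.00137). Gbp2, a guanylate-binding protein gene, measured 22.6, 79.4, 22.6 and 21.5 in CD117pos and 72.1, 223, 113 and 139.6 in CD117neg, a difference of -1.58 ± 0.18 (adjusted p = 0.00371). Mouse _951 was the highest in both fractions, and its CD117pos value exceeded the CD117neg value of mouse _948.

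Igtp and Irgm1, GTPases of the immunity-related family that act on vacuoles of intracellular pathogens, fell, with differences of -0.80 and -0.70. Igtp was the most even of these genes, with -0.84 to -0.73 in the 4 mice, yet its arrays overlapped because the mice differed in level in both fractions. Without the block it no longer passed (adjusted p = 0.0598). Mx2 fell by 0.66 at signals below or near the array medians. The call of Mx2 ended without mouse _948, _952 or _953 (adjusted p = 0.0677, 0.111 and 0.102) and with a pseudocount of 64 (0.0560), and that of Irgm1 without the same mice (0.0826, 0.0746 and 0.0611). Pseudocounts of 1 and 64 gave Mx2 a difference of -1.33 and -0.26. With a pseudocount of 64, Mx1 and Gbp2 differed by -1.54 and -0.99 and passed.

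Gbp3 was the other member that rose. It measured 1391, 2272, 1298 and 1151 in CD117pos cells, against 547, 1119, 805 and 609 in CD117neg cells, with every CD117pos array above every CD117neg array. The difference was 0.98 ± 0.14 (adjusted p = 0.00752), and it lay between 0.68 and 1.32 in the mice. Its probe set is marked by its name as one that can match several transcripts, and Gbp3 had no other probe set. Gbp2 and Gbp3, close relatives in the guanylate-binding family, thus moved in opposite directions, and their relative Gbp7 differed by 0.08 ± 0.15 with an interval of -0.28 to 0.45 (adjusted p = 0.749). Iigp1 differed by 0.62 ± 0.26 (adjusted p = 0.164), with 147 in the CD117pos array of mouse _951 and 39.5 to 59.6 in the other CD117pos arrays. Without mouse _951 the Iigp1 difference was 0.30, and its other probe set differed by -0.07 in the fit without probe sets of shared sequence. Ifi47 differed by -0.41 ± 0.21 (adjusted p = 0.223).

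All 4 measured genes of a mixed effector group, Rtp4, Usp18, Xaf1 and Ifi35, fell, against 13.8% of all genes. None overlapped between fractions, where 17.2% of all genes had every CD117pos array below every CD117neg array. Usp18, the protease that takes Isg15 off its targets and dampens signalling at the type I receptor, measured 37.3, 36.9, 128 and 64.7 in CD117pos cells, against 171, 274, 519 and 329 in CD117neg cells. Mouse _952 was the highest and mouse _948 the lowest or next to lowest in each fraction. The difference was -2.06 ± 0.15 (adjusted p = 0.00121). Rtp4, a chaperone of receptors at the cell surface, measured 168, 315, 745 and 254 in CD117pos and 773, 1915, 2641 and 1846 in CD117neg. It had the same order of mice at both ends, _948 lowest and _952 highest, and differed by -2.31 ± 0.19 (adjusted p = 0.00173). Xaf1, a partner of an apoptosis inhibitor, fell by 1.54, and did not pass when its probe sets were averaged (adjusted p = 0.0555, difference -0.88). Ifi35 fell by 1.03.

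Of 7 measured genes that sense or edit nucleic acid, 4 fell and 3 did not pass, where 13.8% of all genes fell. Ifi204, a DNA-binding protein of the p200 family, measured 6.25, 9.32, 3.34 and 3.03 in CD117pos cells, against 196, 93.4, 422 and 214 in CD117neg cells. Its CD117pos signal was close to the floor of the array in all mice, and the difference of -3.37 ± 0.37 (adjusted p = 0.00361) therefore depends on the pseudocount, from -1.97 with a pseudocount of 64 to -5.08 with 1. The 3 RNA helicases of the RIG-I family had smaller differences. Dhx58 measured 59.9, 48.0, 93.8 and 99.0 in CD117pos and 135, 119, 197 and 133 in CD117neg, a difference of -0.85 ± 0.16 (adjusted p = 0.0148). Ifih1, encoding MDA5, fell by 0.43 (adjusted p = 0.0486), a call at the threshold that ended under 10 of 15 alternatives. They include each mouse left out in turn (adjusted p of 0.0577 to 0.152) and quantile normalisation, where the Ifih1 difference was -0.21 (adjusted p = 0.220). Ddx58, encoding RIG-I, differed by -0.35 ± 0.12 (adjusted p = 0.0895) and was lower in CD117pos in all 4 mice. It passed with a pseudocount of 64 (adjusted p = 0.0333) and as the mean of its probe sets (difference -0.43, adjusted p = 0.0364), and differed by -0.13 after quantile normalisation (adjusted p = 0.469).

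Zbp1, a sensor of left-handed nucleic acid that can start necroptosis, fell by 0.81 (adjusted p = 0.0139). Its 2 probe sets both fell but by unlike amounts. The one not chosen differed by -2.67, and it would have been the one used had probe sets been chosen by linear mean. Dhx58 did not pass without mouse _948 (adjusted p = 0.0813) or _952 (0.0765), nor Zbp1 without _952 (0.0707) or _953 (0.0568). Dhx58 also did not pass as the mean of its probe sets (0.0556, difference -0.35). Eif2ak2, the kinase PKR that halts translation, differed by -0.04 ± 0.14 with an interval of -0.38 to 0.31 (adjusted p = 0.887).

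Adar, which edits adenosines in double-stranded RNA, depended on the probe set. The brightest one differed by 0.41 ± 0.45 (adjusted p = 0.588) and measured 315, 1419, 196 and 266 in CD117pos cells, against 335, 295, 285 and 263 in CD117neg cells. Only the CD117pos array of mouse _951 stood out. Dropping mouse _951 gave a difference of -0.19, dropping only that array, unblocked, gave -0.20, and neither passed. The other 2 Adar probe sets differed by -1.08 and -1.14, of which the second passed in a fit over all probe sets (adjusted p = 0.00484). As the mean of its probe sets Adar passed as lower in CD117pos, with a difference of -0.60 (adjusted p = 0.0126).

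**Figure D3:**
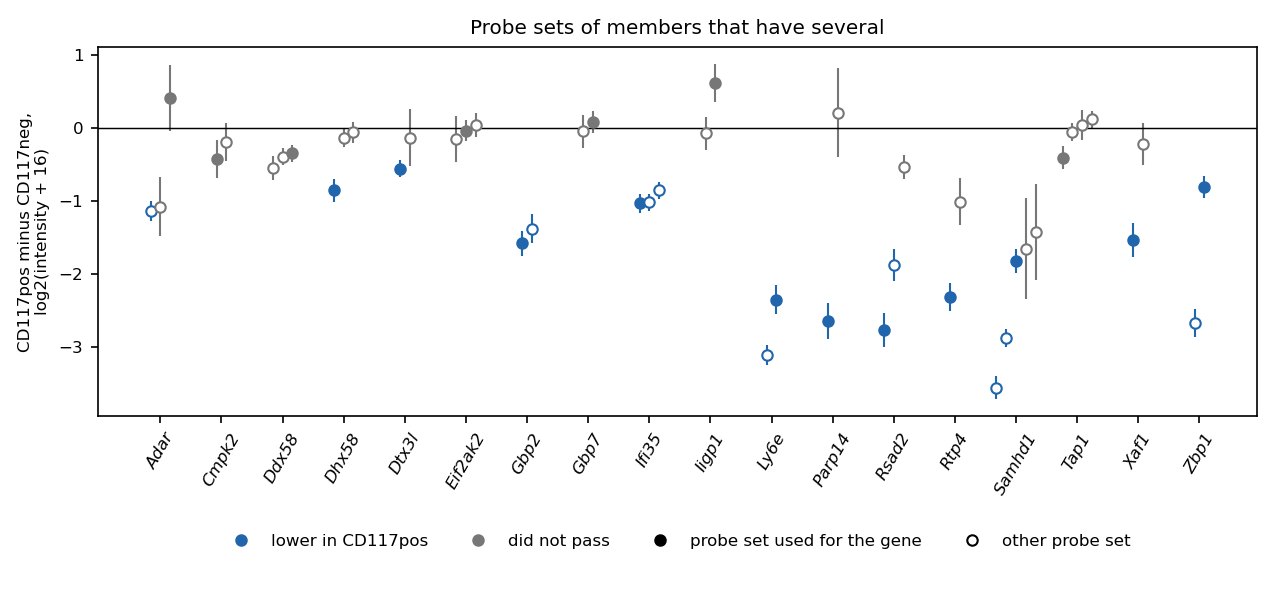
Difference between CD117pos and CD117neg cells for each probe set of the 18 members that have several (y axis, log2 of intensity + 16; bars are SE from a fit over all probe sets). Filled points are the probe sets used for the genes; Parp14, Rsad2 and Samhd1 hold the widest spreads, and in no member did called probe sets disagree in sign.

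Of the 18 members with several probe sets, 8 had some past the threshold and some not, and 0 had called ones that disagreed in sign. The 5 Samhd1 probe sets ranged from -3.55 to -1.42 and the 3 of Rsad2 from -2.76 to -0.54. Both Ly6e probe sets fell, with differences of -2.35 and -3.11. Parp14, with -2.64 in the probe set used, had a second one at 0.21 ± 0.61, and the mean of its probe sets did not pass (difference -1.22, adjusted p = 0.0656). As means of their probe sets, Rsad2 and Zbp1 differed by -1.72 and -1.74 and passed.

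All 4 genes of interferon-induced ADP-ribosylation fell, against 13.8% of all genes. None overlapped between fractions, where 17.2% of all genes had every CD117pos array below every CD117neg array. Parp14, a mono-ADP-ribosyltransferase, measured 83.6, 171, 260.3 and 81.6 in CD117pos cells, against 684, 822, 1195 and 1061 in CD117neg cells, a difference of -2.64 ± 0.25 (adjusted p = 0.00246). Parp12, which moves to stress granules, measured 28.1, 39.2, 106 and 24.8 in CD117pos and 144, 229, 494 and 257 in CD117neg, a difference of -2.20 ± 0.17 (adjusted p = 0.0015). In Parp12 and Parp14 alike, mouse _952 was the highest in both fractions. Parp9 and Dtx3l, whose proteins form a complex that modifies ubiquitin and histones, fell as well, with differences of -0.85 and -0.56. Parp9 lay between -0.91 and -0.76 in all mice. The Dtx3l call ended without mouse _948, _952 or _953 (adjusted p = 0.0734, 0.0945 and 0.0925), after quantile normalisation (0.0789), with a pseudocount of 1 (0.0556) and as the mean of its probe sets (0.302). Its difference was -0.35 both after quantile normalisation and as that mean.

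Among the membrane protein genes Ifitm3 and Ifitm1 had the largest falls. Ifitm1, Ifitm2 and Ifitm3 encode small membrane proteins that keep viruses from fusing with endosomes. Ifitm3 measured 57.7, 1165, 163 and 28.7 in CD117pos cells, against 3234, 3362, 4874 and 3383 in CD117neg cells. The CD117pos array of mouse _951 was far above the other 3, while the CD117neg arrays were alike apart from a higher one in mouse _952. The difference was -4.50 ± 0.76 (adjusted p = 0.0118). It was -5.49 without mouse _951 (adjusted p = 0.000426) and -5.45 in an unblocked fit that drops its CD117pos array. Ifitm3 did not pass when mouse _948 (adjusted p = 0.0675), _952 (0.0608) or _953 (0.0616) was left out.

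Ifitm1 measured 12.6, 184, 12.2 and 21.0 in CD117pos cells, against 606, 1365, 505 and 201 in CD117neg cells, a difference of -3.50 ± 0.36 (adjusted p = 0.00314). Mouse _951 was the highest in both fractions, and mouse _953 had the lowest CD117neg value. Ifitm2 measured 1224, 3317, 1087 and 867 in CD117pos and 2720.4, 3003, 2544 and 2289 in CD117neg. It did not pass over all mice (difference -0.90 ± 0.27, adjusted p = 0.0698), being slightly higher in CD117pos in mouse _951. Without that mouse the Ifitm2 difference was -1.25 (adjusted p = 0.00193), and in an unblocked fit that drops its CD117pos array it was -1.31 (adjusted p = 0.000381).

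Ly6e, a lipid-anchored surface protein that restricts coronavirus entry, measured 1085, 522, 1167 and 555 in CD117pos cells, against 3731, 3315, 5419 and 3973 in CD117neg cells. The fractions were far apart in every mouse, and the difference was -2.35 ± 0.20 (adjusted p = 0.00181). Tap1, which carries peptides to MHC class I, differed by -0.41 ± 0.16 (adjusted p = 0.139), and by -0.55 without mouse _951, where it passed (adjusted p = 0.0291). Bst2, the tetherin that holds budding virus on the cell, differed by 0.30 ± 0.19 with an interval of -0.17 to 0.77 (adjusted p = 0.337).

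The members' levels also varied from mouse to mouse within each fraction. In the CD117neg arrays mouse _948 was the lowest of the 4 in 28 of 41 members, against 31.8% of all genes, and mouse _952 was the highest in 23, against 22.7%. The median member lay 0.37 below the mean of the 4 CD117neg arrays in mouse _948, a deviation of -0.37 on the log2 scale, and deviated by 0.26 in mouse _952. In the CD117pos arrays mouse _948 was the lowest in 16 members, against 23.4% of all genes. Mouse _951 was the highest in 19, against 31.1%, and the lowest in 11. No member passed a moderated F-test of the mouse terms (limma, adjusted p under 0.05), nor did any of the 18193 genes. At an unadjusted p under 0.05, 13 of the 41 members differed between mice, against 7.71% of all genes. Usp18 had the smallest such p, at 0.0022, followed by Rtp4 at 0.00302. Nothing in the labels says how the mice differed beyond their numbers.

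**Figure D4:**
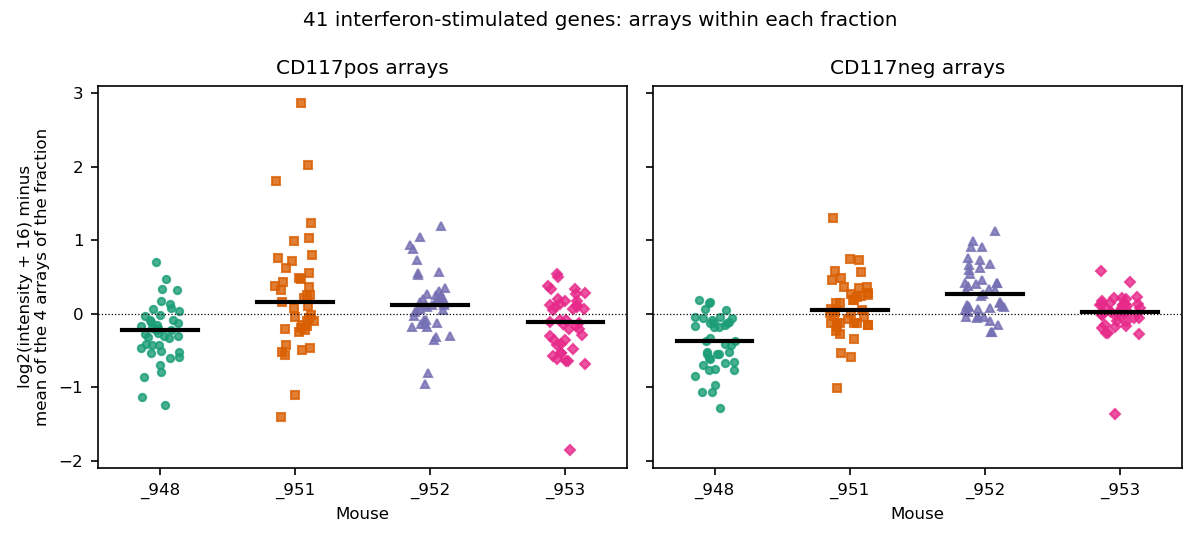
Deviation of each of 41 interferon-stimulated genes from the mean of its fraction (y axis, log2 of intensity + 16), by mouse, in the CD117pos arrays (left) and the CD117neg arrays (right); each point is a gene and black bars are medians. In CD117neg most points of mouse _948 lie below 0, with a median of -0.37, and most of mouse _952 above 0, with a median of 0.26; in CD117pos mouse _951 has the widest spread.

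The median difference over members was -1.12 in mouse _948, -1.01 in mouse _951, -1.08 in mouse _952 and -1.10 in mouse _953. When the CD117pos array of mouse _951 was dropped and the arrays were unblocked, 29 members fell and 1 rose, with a median of -1.08.

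Genes that carry the interferon signal were taken from a separate list of 45, of which 40 were measured. Of the 40, 20 fell, 0 rose and 20 did not pass, with a median difference of -0.69, against 13.8% falls and 8.36% rises over all genes. Leaving out mouse _948, _952 or _953 left 12, 12 and 13 falls, and leaving out _951 gave 24. Falls over all genes moved the same way, numbering 1230, 1404 and 1219 in those 3 fits and 2985 in the last. The 5 measured ligands, Ifnb1, Ifna1, Ifna2, Ifna4 and Ifng, averaged at most 33.8 in either fraction and none passed. Their signal was near or below the array medians, where differences carry little information. The Ifnb1 mean of 33.8 rests on the CD117pos array of mouse _951, which measured 78.7, against 13.2 to 25.7 in the other CD117pos arrays.

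Of 6 receptor chains 4 fell, against 13.8% of all genes. Ifnar2, the chain that docks the signalling proteins of the type I receptor, measured 584, 492, 659.8 and 610.0 in CD117pos cells, against 1423, 1641, 1533 and 1556 in CD117neg cells. The fractions were well apart and the mice alike, with a difference of -1.37 ± 0.13 (adjusted p = 0.00252). Ifnar1, its partner chain, fell by 0.81 (adjusted p = 0.0357), but did not pass without mouse _948 (0.102), _952 (0.0745) or _953 (0.126), nor with quantile-normalised arrays (0.0567). Of the interferon gamma receptor, Ifngr2 measured 35.8 ± 8.08 in CD117pos and 133 ± 36.8 in CD117neg (SD, n = 4 each), a difference of -1.49 ± 0.20 (adjusted p = 0.0064). Ifngr1, its ligand-binding chain, differed by -0.12 ± 0.13 with an interval of -0.44 to 0.19 (adjusted p = 0.562), and by 0.06 with quantile-normalised arrays. Downstream, 4 of 5 kinases and STATs fell, against the same 13.8%. Jak2 averaged 459.6 ± 193 in CD117pos and 1427 ± 128 in CD117neg, a difference of -1.67 ± 0.20 (adjusted p = 0.00435). Tyk2 averaged 326 ± 62.0 in CD117pos and 780.3 ± 49.1 in CD117neg, a difference of -1.24 ± 0.14. Stat2, the subunit that with Irf9 forms the type I transcription complex, fell by 0.92 (adjusted p = 0.0195), and Irf9 fell by 1.10 (adjusted p = 0.00713). Stat2 did not pass as the mean of its probe sets (difference -0.22, adjusted p = 0.389) or without mouse _948 (0.0943) or _952 (0.0917). As means of their probe sets, Ifngr2 and Tyk2 differed by -0.74 and -0.70 and passed.

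Interferon regulatory factors, which bind the response element or induce interferon genes, held the largest falls of the signalling list. Of 7 measured 6 fell, against 13.8% of all genes. Irf5 measured 60.6, 23.1, 53.8 and 29.8 in CD117pos cells, against 995, 641, 1094 and 1003 in CD117neg cells, a difference of -4.07 ± 0.15 (adjusted p = 0.000207). Irf8, also a regulator of monocyte differentiation, averaged 261 ± 192 in CD117pos and 3078 ± 375 in CD117neg and differed by -3.74 ± 0.36 (adjusted p = 0.00252). Irf7 and Irf1 fell too, with differences of -3.25 and -1.49. In all 7 factors, Irf2 included (difference -0.86 ± 0.24, adjusted p = 0.0524), all 4 CD117pos arrays lay below all 4 CD117neg arrays, against 17.2% of all genes. Irf3, which starts the first wave of interferon, fell by 0.67 (adjusted p = 0.0442), a call that ended with quantile-normalised arrays (0.105) and without mouse _948 (0.127), _952 (0.0717) or _953 (0.153). Irf2 passed without mouse _951 (difference -1.09, adjusted p = 0.0115). The mean of all Irf5 probe sets differed by -2.18 and passed.

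Of 8 adaptors and kinases that lead to interferon production 2 fell, and of 4 Toll-like receptors 1, against 13.8% of all genes. Myd88, the adaptor of most Toll-like receptors, averaged 580.1 ± 249 in CD117pos and 1833 ± 291 in CD117neg, a difference of -1.77 ± 0.39 (adjusted p = 0.0274), with -3.33 in mouse _951 and -1.37 to -1.06 in the other mice. Ticam1, the adaptor of Tlr3, fell by 0.55. Neither passed without mouse _948, _952 or _953, at adjusted p of 0.0653 to 0.0931 for Myd88 and 0.0764 to 0.123 for Ticam1. Without mouse _951 the Myd88 difference was -1.25 (adjusted p = 0.00222). Of 4 Toll-like receptors Tlr7, a sensor of single-stranded RNA, fell, averaging 39.0 ± 24.0 in CD117pos and 379 ± 171 in CD117neg (difference -2.80 ± 0.23, adjusted p = 0.0018). Among 5 inhibitors Socs3, Pias3 and Ptpn6 fell. Socs3, which blocks Jak kinases, differed by -2.76 ± 0.35 (adjusted p = 0.00548). When probe sets that can match several transcripts were left out, Socs3 did not pass (difference -0.18, adjusted p = 0.455). Pias3, an inhibitor of Stat3, differed by -1.36 ± 0.12 (adjusted p = 0.00225), and by -0.55 as the mean of its probe sets (adjusted p = 0.0168). Ptpn6, a phosphatase that acts on Jak kinases, differed by -1.35 ± 0.36 (adjusted p = 0.0461), and by -0.88 without mouse _951 (adjusted p = 0.0044). It did not pass without mouse _948 (0.114), _952 (0.113) or _953 (0.107).

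**Figure D5:**
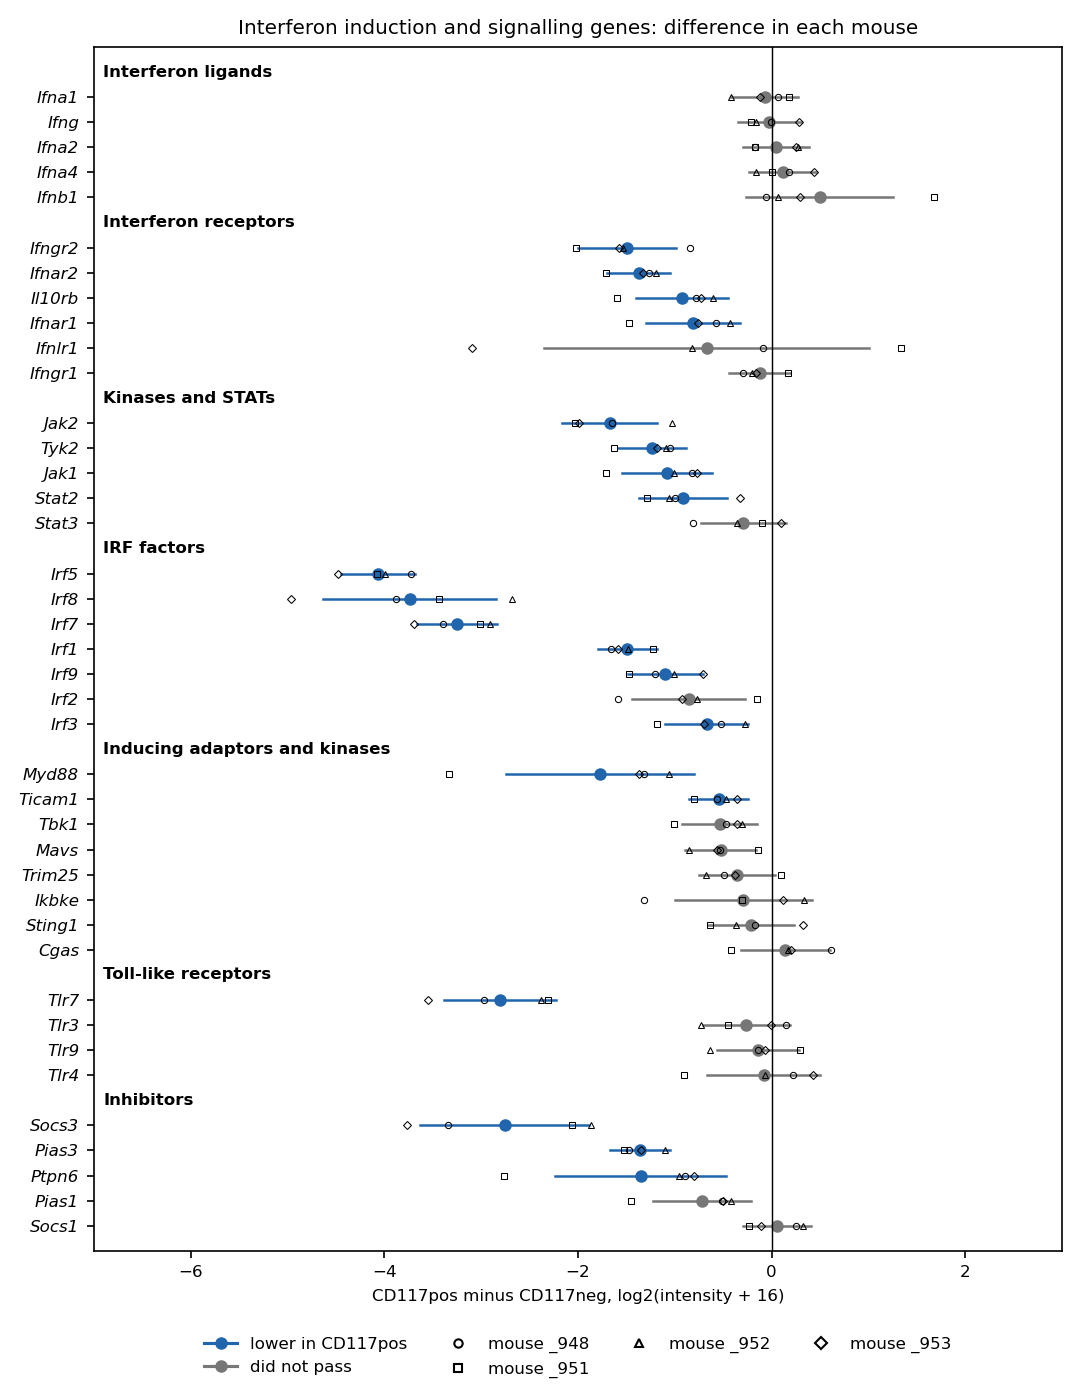
Difference between CD117pos and CD117neg cells for 40 genes of interferon induction and signalling (x axis, log2 of intensity + 16; filled points are fitted means, bars 95% confidence intervals, open symbols the 4 mice). The 20 genes that fell are blue, none rose, and the ligands lie around 0.

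Markers of mature myeloid cells were mostly lower in CD117pos as well. Of 11 measured monocyte and macrophage markers, 6 fell and 1, Vcam1, rose, and their summed intensity was 3440 to 6837 in the CD117pos arrays, against 18003 to 21364 in the CD117neg arrays. Of 8 neutrophil markers, 7 fell, with sums of 13613 to 31136 in CD117pos and 56407 to 62617 in CD117neg. Most of each neutrophil sum came from S100a8, S100a9, Camp and Ngp, of which Camp did not pass. The monocyte and macrophage sums were led by Csf1r in CD117neg, with a mean of 7600, and by Vcam1 in CD117pos, with 1716. Such sums thus mostly reflect their brightest probe sets. The lowest CD117pos sum of both lists was that of mouse _951. Its CD117pos array was the highest of its fraction in 19 of 41 members, against 31.1% of all genes, but also the lowest in 11. In CD117neg, mouse _948 was the lowest in 28 members, against 31.8% of all genes. The neutrophil sum of mouse _948 was the lowest of that fraction, and its monocyte and macrophage sum, 19616, was above the 18003 of mouse _951. How the members relate to these sums was not tested. Plasmacytoid dendritic cells are a main source of type I interferon, and 0 of their 7 markers passed by limma (1, Ccr9, at an unadjusted p under 0.05), with sums of 1524 to 2690 in CD117pos and 1701 to 3192 in CD117neg. Most of each sum came from Tcf4, with means of 1244 in CD117pos and 1714 in CD117neg, and Klk1, with 647 and 432. The other 5 markers averaged under 50 in both fractions, so the sums say little about these cells. Their defining marker Siglech averaged 25.0 in CD117pos and 26.0 in CD117neg, below the array medians. T cell markers reached a sum of 876 in the CD117pos array of mouse _951, against 112 to 220 in the other CD117pos arrays and 220.0 to 582 in CD117neg, and Cd3e stayed at 6.66 in CD117pos and 5.50 in CD117neg. Most of the sum of 876 came from Cd8a at 537 and Thy1 at 245. Stromal and endothelial markers reached 831 in that array, against 164 to 171 in the other CD117pos arrays and 205 to 249.9 in CD117neg, with Pdgfrb at 551 and Col1a2 at 165 making up most of it and Cdh5 at 11.1. Of the other lists, 1 of 6 conventional dendritic (Itgax), 1 of 9 T cell (Cd28) and 1 of 7 B cell markers (Cd22) fell, 1 of 6 NK cell markers (Klra8) rose, and no erythroid, megakaryocyte or stromal marker passed. Over all genes 13.8% fell and 8.36% rose, so 1 call in a list of 6 to 9 does not set that list apart.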

How the data were processed

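Spleen cells of 4 mice were sorted into CD117pos and CD117neg fractions, 1 array each. Per the labels, polyA RNA went through a 2-cycle amplification and was read on 1-colour Affymetrix arrays. The deposited values are a linear intensity for each of 45101 probe sets. The sources used here do not state how the authors summarised and scaled them, so the deposited intensities were taken unchanged. An array held 841 to 898 values of exactly 1, which look like a floor.

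Names came from the platform's annotation: 34945 probe sets had 1 symbol, 932 had several and 9160 had none listed, and 64 controls were left out. Symbols were matched to a current gene table for 34741, and 0 changed. Each of 18193 genes was represented by its probe set of highest mean log2 value. Levels of different probe sets are not compared. Log2(intensity + 16) was fitted with limma 3.58.1 in R 4.3.3 (lmFit, eBayes, two-sided), with mouse as a block, on the 8 arrays together, and p-values were adjusted by Benjamini-Hochberg over all genes. The pseudocount understates the change of dim genes. A moderated F-test served for the mouse terms. The code was tested on simulated arrays in which 100 genes changed by 1 log2 unit and 100 by 2. The fit called 31% of the first and 85% of the second, with 8 false calls. These shares may differ in the real arrays, but a gene that did not pass is not shown to be unchanged. Arrays have no depth, and their number limits the precision.

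The design text says that each mouse gave both fractions. Deviations from the fraction means correlated across genes at 0.21, 0.22, 0.27 and 0.12 within mice _948, _951, _952 and _953, and at most 0.11 between mice. Separate transductions are not stated.

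The members and the lists of signalling genes and cell type markers were chosen with earlier results of these data known. Per-array values are given for the 2 members of each role with the largest difference past the threshold, the members that rose and the 3 of highest mean, and for up to 2 signalling genes of each role, some as means ± SD. The arrays of Ifit1, Adar and Ifnb1, the values of Iigp1 and of single cell type markers, and 9 further signalling genes (Ifnar1, Ifngr1, Stat2, Irf1, Irf2, Irf3, Irf7, Irf9 and Ptpn6) were added after their values were seen. Alternatives were quantile normalisation, median centring, pseudocounts of 1 and 64, no genes under a mean of 50, the mean of a gene's probe sets, no probe sets of shared sequence, no block, an intensity trend, each mouse left out and the CD117pos array of mouse _951 left out. The probe set of highest linear mean was added after seeing the data.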

Additional observations from a re-analysis of the deposited data

Results flagged for a closer look

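In 9 of the 82 combinations of a member and a fraction, 1 array stood apart from the other 3 by a gap larger, as a share of the range of the 4 on the log2(intensity + 16) scale, than Dixon's critical value at 95%. Chance flags about 5% of such groups of 4 if the values are independent and normal. The share over all genes was not computed, so the 9 do not set the members apart from other genes.

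In CD117neg cells the low array was that of mouse _948 for Ifit1 (34.8, gap 0.880 of the log2 range), Ifi47 (768, gap 0.915) and Ifih1 (1005, gap 0.863), and that of mouse _953 for Iigp1 (29.8, gap 0.979). The high CD117neg array was that of mouse _952 for Parp9 (657, gap 0.851) and Ifitm3 (4874, gap 0.890). In CD117pos cells the high array was that of mouse _951 for Gbp2 (79.4, gap 0.968) and Ifitm1 (184, gap 0.861), and that of mouse _952 for Ifit2 (605, gap 0.839). For Iigp1 the gap of 0.979 covers a narrow range, since all its CD117neg values lay between 29.8 and 38.6.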

How the results depend on the processing

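All 28 members that fell kept their sign under each of the 15 alternatives in which they were measured. The count of falls was 20 to 29, the lowest without mouse _952 and the highest without _951 or its CD117pos array. Without the replicate block 26 members fell and 1 rose. The rises also numbered 1 with a pseudocount of 1, without probe sets of shared sequence (36 members measured, Gbp3 not among them) and in the unblocked fit that drops the CD117pos array of mouse _951, and 1 to 2 with a mouse left out. Signalling genes that fell numbered 12 to 24 with a mouse left out. The median difference of members, -0.90, was -0.75 after quantile normalisation, -0.81 after centring, -1.16 and -0.80 with pseudocounts of 1 and 64, -0.96 without dim genes, -1.03 with probe sets of highest linear mean, -1.08 in that unblocked fit and -1.12 to -0.999 with a mouse left out. Among the members and the named signalling genes, signs turned for 5 that had not passed: Gbp7 (-0.044 without that array), Iigp1 (-0.073 without shared sequence), Eif2ak2 (0.12 quantile, 0.057 centred, -0.12 to 0.069 with a mouse left out), Ifngr1 (0.063 quantile) and Adar (-0.60 as the mean of its probe sets, which passed as lower, -0.20 without that array, -0.19 to 0.71 with a mouse left out). The cause of these turns was not tested. With 3 mice left, fewer degrees of freedom remain. Signals near the floor limit what can be said of the interferon genes, Ifi204 and Mx2.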
